A study of Mus musculus with 10 samples.

Results

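The genes described here are the matrix metalloproteinases (MMPs), the ADAM, ADAMTS and ADAMTS-like (ADAMTSL) proteins and the tissue inhibitors of metalloproteinases (TIMPs) of the mouse lung. They were chosen by name, as every protein-coding gene of the table whose symbol begins with Mmp, Adam, Adamts, Adamtsl or Timp followed by a digit and whose level averaged at least 0.1 FPKM over the 10 lungs. FPKM is the number of sequenced fragments of a gene divided by its length and scaled to the size of the library. The rule gave 59 of the 54532 genes of the table, made up of 16 MMPs, 18 ADAMs, 16 ADAMTS proteases, 5 ADAMTSL genes and 4 TIMPs. It left out 24 of the 83 protein-coding genes with a matching name, of which 12 were at 0 in every lung. Adamts13 (mean 0.117 FPKM) and Adamts19 (0.148 FPKM) lay just inside the limit, and Adamts20 (0.0761 FPKM) and Adam18 (0.0473 FPKM) just outside.

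Whole lungs of 30-day-old wild-type C57BL/6J mice were sequenced as bulk RNA, 5 from mice with increased pulmonary blood flow (IPF) and 5 from sham-operated mice. IPF had been made on postnatal day 7 by a puncture from the abdominal aorta into the inferior vena cava, an aortocaval fistula that shunts arterial blood to the right heart and the lung. Sham mice had the same laparotomy without the puncture, and both groups were operated under isoflurane with buprenorphine as the analgesic. The comparison asks how the lung transcriptome differed when the postnatal lung received more blood, here for the enzymes that cut the extracellular matrix and cell surface proteins. The labels number the samples without naming animals, so that the p-values measure the spread between these 10 libraries.

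Metalloproteinases of these families are zinc enzymes. MMPs cleave collagens, gelatin, elastin and other matrix proteins and are made as inactive proenzymes, ADAMs sit in the cell membrane and release the outer part of other membrane proteins, and ADAMTS enzymes are secreted and process procollagens, fibrillin-associated proteins and the proteoglycans versican and aggrecan. TIMPs bind the active site of these enzymes, and TIMP3, which is held in the matrix, also inhibits ADAM17 and aggrecan-cleaving ADAMTS enzymes. In the growing lung they take part in the remodeling of alveolar walls and vessels.

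Each library held 15483046 to 19026843 recovered reads, with medians of 18264357 in the IPF group and 16386455 in the sham group. Markers of alveolar epithelium, which define lung, summed to 13480 to 21068 FPKM in the 10 libraries. All 5 IPF lungs had high Xist (26.8 to 43.2 FPKM) with the 4 Y-linked genes at 0, whereas all 5 sham lungs expressed the Y-linked genes, so that sex and group cannot be told apart. The methods describe pups of both sexes, with allocation balanced for sex where feasible, a balance that these libraries do not show. The surgery targets no gene, so the RNA gives no direct check of the group labels, on which every direction given here rests. Of 13 circadian clock genes, 12 differed between the groups. The clock repressor Nr1d2 read 2.79 to 17.3 FPKM in IPF and 43.1 to 47.1 FPKM in sham lungs, and the highest IPF value was that of replicate 5. Sham replicate 1 correlated least with the other libraries (mean Spearman's rho across genes 0.957, others 0.963 to 0.968). Of the marker lists, summed FPKM was higher in every IPF than in every sham lung for interstitial macrophages and monocytes (125 to 153 against 77.7 to 109, 3 of 8 genes higher and 5 not called), T and B cells (42.8 to 57.7 against 24.2 to 39.1, 5 of 9 higher) and endothelium (1243 to 1427 against 1113 to 1165, 1 of 8 higher). The summed ranges of the groups overlapped for fibroblasts (608 to 718 in IPF, 630.4 to 750.0 in sham, 2 of 9 higher) and for smooth muscle and pericytes (213 to 295 and 213 to 248, 1 of 8 lower). The part of sex, clock phase and cell makeup in the results was not tested.

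Over the 59 genes, 8 differed between IPF and sham lungs at an adjusted p under 0.05, 4 higher and 4 lower (limma on log2(FPKM + 0.1), adjusted over all 20448 genes tested). Adam17, Mmp11, Adamts5 and Mmp14 rose, and Adamts8, Timp3, Adamts1 and Adamts14 fell. These 8 are 13.6% of the family, and 5.85% of all genes tested were called (3.71% higher and 2.14% lower). No member passed the limits of the study, which also ask for an absolute log2 fold change above 1 and were met by 1.14% of all genes. An unadjusted p under 0.05 was found for 21 members (35.6%, against 19.5% of all genes). Limma voom on recovered reads gave 12 calls and 2 members past both limits, and called 7.17% of all genes. In 14 members the groups did not overlap, 7 higher and 7 lower in IPF (23.7%, against 7.29% of all genes, 4.52% higher and 2.77% lower). The members are protein-coding by rule, and such genes were called more often than the rest. Of 14872 protein-coding genes tested, 1086 were called, 3354 had an unadjusted p under 0.05 and 1363 did not overlap between the groups. In bulk tissue, fewer cells of a type and less RNA per cell cannot be told apart.

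**Figure D1:**
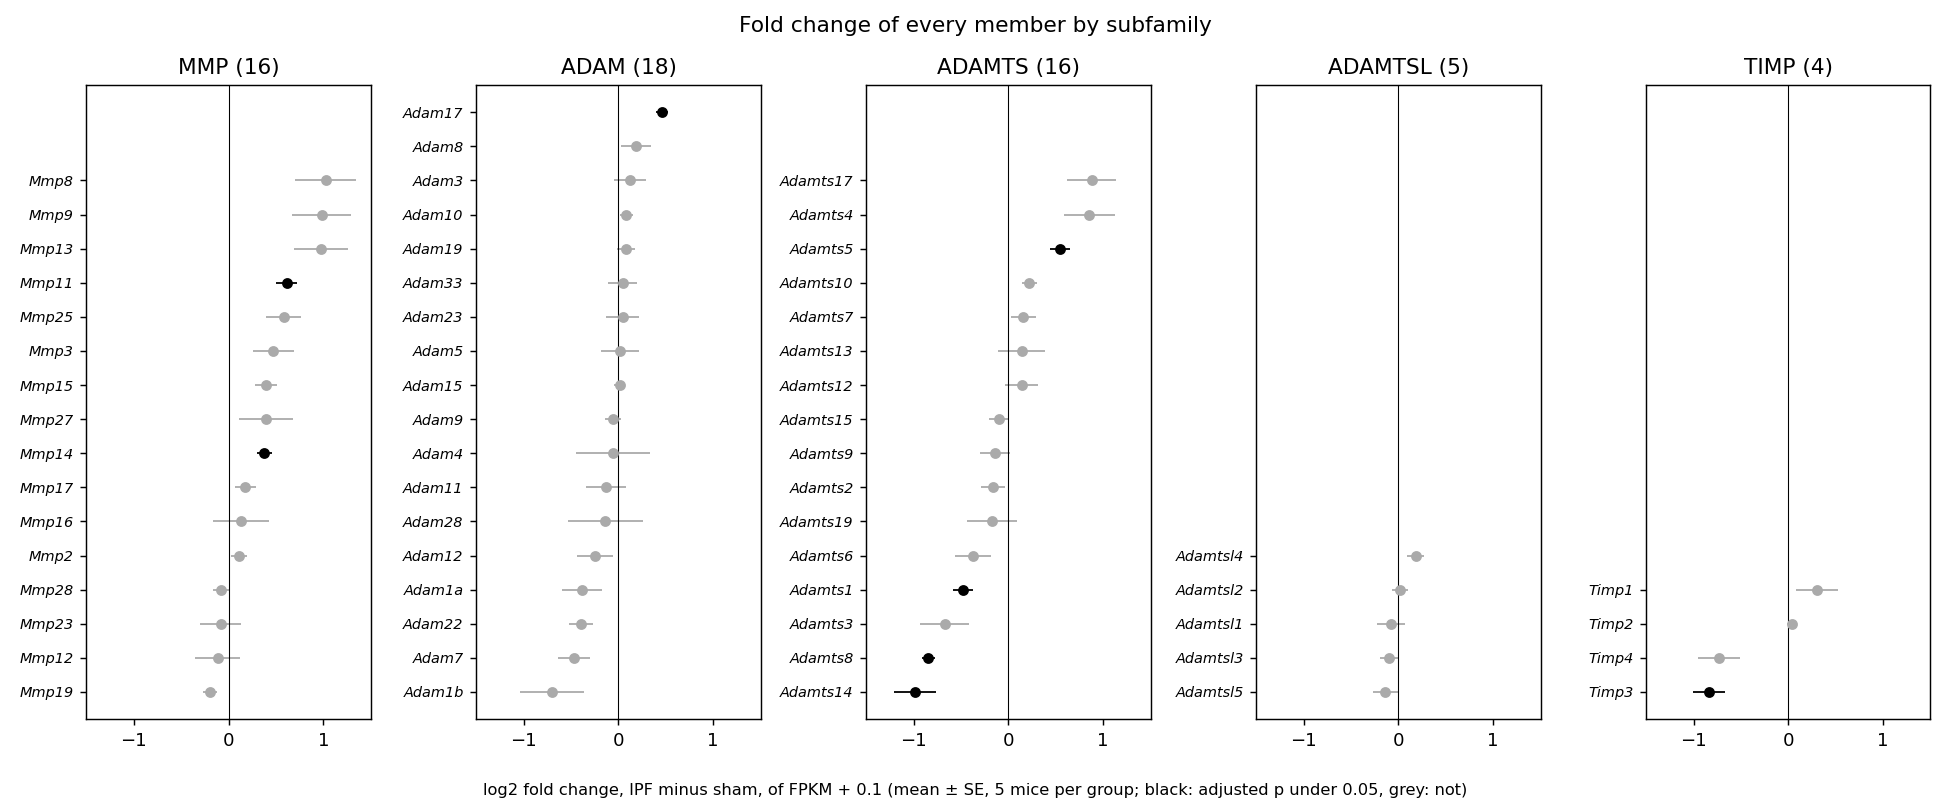
Fitted log2 fold change of IPF against sham for each of the 59 members by subfamily (axis in log2 units, bars showing the SE, black points an adjusted p under 0.05, grey points the rest). Black points lie on the higher side for Adam17, Mmp11, Adamts5 and Mmp14 and on the lower side for Adamts8, Timp3, Adamts1 and Adamts14, and most MMP points lie to the right of 0.

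By subfamily, the largest share of members fitted higher was that of the MMPs. Of the 16 MMPs, 12 were fitted higher and 4 lower in IPF, with a median of 0.39 on the log2 scale and 2 calls, both higher. With a pseudocount of 1 the MMP median was smaller, lying between Mmp27 at 0.138 and Mmp25 at 0.178. ADAMs stood at 9 higher and 9 lower (median -0.02, 1 call higher), and ADAMTS proteases at 7 and 9 (median -0.12, 1 call higher and 3 lower). The 5 ADAMTSL genes gave no call by limma, by limma voom or at an unadjusted p under 0.05 (0 genes each), with a median of -0.08. The 4 TIMPs split evenly, with 1 call, lower, and a median of -0.34 that was -0.12 with a pseudocount of 1 and 0.0401 over the 3 TIMPs with at least 1 FPKM. Over the 41 members counted as proteases the median was 0.11, with 4 calls higher and 3 lower, over all members it was 0.02, and over all genes tested it was 0.00. These counts and medians are descriptions, without a test of one subfamily against another.

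Promoter sequences are shown for 6 members. Timp3 and Adamts1 (lower) and Adam17 and Mmp14 (higher) were taken from the calls on either side. Mmp13 and Adamts17 had wide fold changes without a call in the main test. Mmp8 had a wider fold change than either and is not shown. RefSeq promoters (GRCm38.p6) were given for 36 of the 59 members, Adamts8 and Adamts5 not among them, and each line holds the 250 bases before the transcription start, 5′ to 3′ on the gene's strand. Capitals mark matches on either strand to the E-box CACGTG, the AP-1 site TGANTCA, the GC box GGGCGG, the TATA box TATAAA or the ROR half-site AGGTCA, none of which contains another. The table's Timp3 gene begins inside the window shown for it. The windows are chr10:86300162-86300411 (plus strand), chr16:85803114-85803363 (minus), chr12:21373633-21373882 (minus), chr14:54431348-54431597 (plus), chr9:7272264-7272513 (plus) and chr7:66839485-66839734 (plus).
Timp3: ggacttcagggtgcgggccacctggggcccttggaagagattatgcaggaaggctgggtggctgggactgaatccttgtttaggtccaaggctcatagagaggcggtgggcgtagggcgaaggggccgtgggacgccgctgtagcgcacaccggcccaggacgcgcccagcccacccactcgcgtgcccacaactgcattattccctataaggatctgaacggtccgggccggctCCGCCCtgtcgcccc
Adamts1: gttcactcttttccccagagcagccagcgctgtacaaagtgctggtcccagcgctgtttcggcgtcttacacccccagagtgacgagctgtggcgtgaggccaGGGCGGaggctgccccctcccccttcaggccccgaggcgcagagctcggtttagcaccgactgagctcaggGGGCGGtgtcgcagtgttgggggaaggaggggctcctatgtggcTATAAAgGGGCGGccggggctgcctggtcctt
Adam17: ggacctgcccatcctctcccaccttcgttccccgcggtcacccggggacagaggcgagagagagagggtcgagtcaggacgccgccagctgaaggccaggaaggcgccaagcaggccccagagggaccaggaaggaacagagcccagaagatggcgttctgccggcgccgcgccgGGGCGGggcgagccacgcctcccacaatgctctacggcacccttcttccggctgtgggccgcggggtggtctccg
Mmp14: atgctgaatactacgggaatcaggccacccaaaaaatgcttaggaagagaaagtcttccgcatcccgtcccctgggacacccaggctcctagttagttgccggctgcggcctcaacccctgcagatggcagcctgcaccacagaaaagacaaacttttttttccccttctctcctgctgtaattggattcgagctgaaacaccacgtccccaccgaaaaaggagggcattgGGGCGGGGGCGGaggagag
Mmp13: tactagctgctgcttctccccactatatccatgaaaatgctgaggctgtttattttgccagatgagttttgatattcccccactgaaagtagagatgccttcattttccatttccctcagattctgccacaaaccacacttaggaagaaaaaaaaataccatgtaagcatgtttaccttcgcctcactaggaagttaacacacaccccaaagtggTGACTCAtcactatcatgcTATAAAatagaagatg
Adamts17: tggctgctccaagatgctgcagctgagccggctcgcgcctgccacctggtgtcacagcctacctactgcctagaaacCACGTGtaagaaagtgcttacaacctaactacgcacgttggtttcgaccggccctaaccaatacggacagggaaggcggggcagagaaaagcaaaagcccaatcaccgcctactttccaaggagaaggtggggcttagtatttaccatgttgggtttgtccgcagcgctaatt

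Every one of the 6 called members with a promoter had a GC box, 3 of 3 higher and 3 of 3 lower. It was found in 21 of 36 members (58.3%) and in 35.4% of all 27025 genes with a promoter. Adamts1 was the only called member with a TATA box, which 14.3% of all genes had. None of the 6 held an E-box, an AP-1 site or a ROR half-site, which were found in 6.86%, 7.82% and 15.8% of all genes. Mmp13 held an AP-1 site starting 35 bases and a TATA box starting 16 bases before the start, and Adamts17 an E-box starting 173 bases before it. The window of Mmp8, not shown, held no match. Over the members, an AP-1 site was found in 4 of 36 (11.1%) and an E-box in 3 of 36 (8.33%). A match is a string of letters and not a measured binding site.

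Among the MMPs, Mmp11 and Mmp14 were higher in IPF. Mmp11 (ENSMUSG00000000901, chromosome 10, 75923222 to 75936496) encodes stromelysin-3, a secreted MMP that furin activates inside the cell and that is known from stromal fibroblasts. Its level in replicates 1 to 5 was 14.6, 19.4, 18.1, 16.4 and 13.1 FPKM in IPF and 9.17, 10.9, 11.4, 9.75 and 11.5 FPKM in sham lungs. Every IPF value lay above every sham value, and IPF replicate 5 was the lowest of its group. The difference was 0.61 on the log2 scale (SE 0.11, limma adjusted p = 0.00821). Chchd10, on the opposite strand, overlaps Mmp11 and differed by -0.03 (adjusted p = 0.935).

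Mmp14 (ENSMUSG00000000957, chromosome 14, 54431612 to 54445364) encodes MT1-MMP, the membrane-bound collagenase that activates pro-MMP2 with the help of TIMP2. Its level was 25.8, 26.9, 24.7, 24.1 and 19.5 FPKM in the IPF lungs and 19.1, 17.7, 17.95, 19.4 and 18.4 FPKM in the sham lungs. The groups did not overlap, although IPF replicate 5 lay only just above the highest sham lung. The difference was 0.38 on the log2 scale (SE 0.08, limma adjusted p = 0.0202). The call was lost when IPF replicate 1, 2 or 4 or sham replicate 2 or 3 was left out (adjusted p = 0.0527 to 0.0564).

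Mmp2 (ENSMUSG00000031740), gelatinase A and the substrate of MT1-MMP, was the most abundant MMP. It read 70.1, 83.1, 89.6, 82.5 and 70.8 FPKM in IPF and 76.4, 66.7, 78.3, 72.4 and 71.9 FPKM in sham lungs, with overlapping groups. The difference was 0.11 on the log2 scale (SE 0.08, limma adjusted p = 0.492). The other membrane-type MMPs were each fitted higher in IPF, and of the 5 Mmp14 was the only call of the main limma test, while limma voom and the fit without a variance trend also called Mmp25. Mmp15, which encodes MT2-MMP, read 30.8 to 51.1 FPKM in IPF against 30.2 to 35.5 FPKM, a difference of 0.40 (adjusted p = 0.0714). The other IPF lungs had 43.0 FPKM or more, and replicate 5 lay among the sham lungs.

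**Figure D2:**
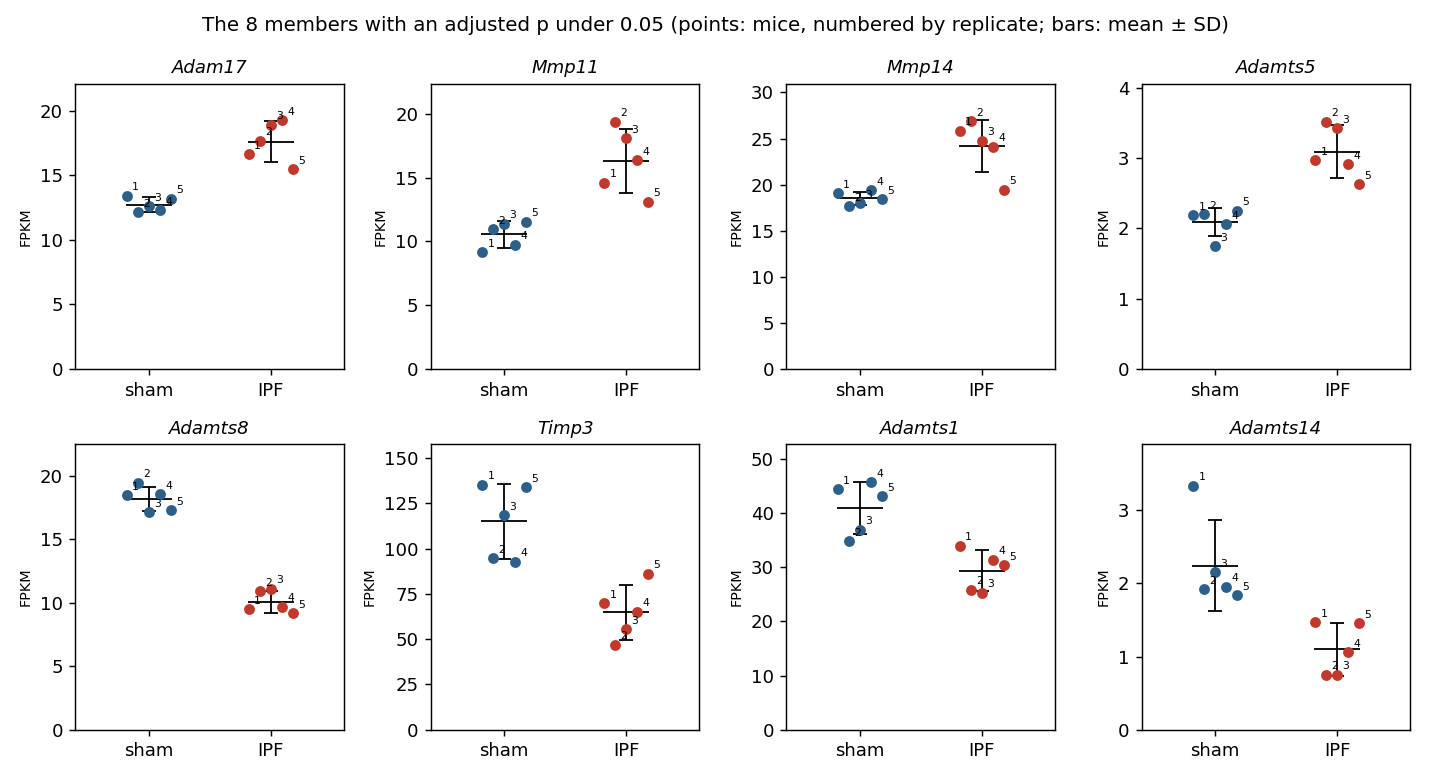
FPKM of the 8 members with an adjusted p under 0.05, by group (points are single lungs numbered by replicate, horizontal bars the mean, error bars the SD, n = 5 a group, axes from 0). In each panel the IPF and sham points do not overlap, and sham replicate 1 stands above the other sham lungs for Adamts14.

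The 2 collagenases, Mmp8 and Mmp13, and the gelatinase Mmp9 had log2 differences near 1 but were not called. Mmp9 (ENSMUSG00000017737, chromosome 2, 164940780 to 164955850), gelatinase B of neutrophils and macrophages, read 2.04, 1.88, 3.41, 1.89 and 6.16 FPKM in IPF and 1.17, 1.54, 1.62, 0.899 and 1.63 FPKM in sham lungs. Its groups did not overlap, and IPF replicate 5 stood highest. The difference was 0.98 on the log2 scale (SE 0.31, limma adjusted p = 0.09995). Without IPF replicate 5 the difference was 0.70 (adjusted p = 0.0963).

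Mmp8 (ENSMUSG00000005800), the collagenase stored in neutrophil granules, read 1.96, 1.24, 1.35, 1.97 and 3.52 FPKM in IPF and 0.600, 1.15, 1.13, 0.470 and 1.30 FPKM in sham lungs. The groups overlapped, with IPF replicate 2 below the highest sham lung. The difference was 1.03 on the log2 scale (SE 0.32, limma adjusted p = 0.0924). With a pseudocount of 1 in place of 0.1, which shrinks the differences of rare genes, it was 0.62. Mmp13 (ENSMUSG00000050578), collagenase-3, was low, with 0.549, 0.561, 0.594, 0.739 and 0.909 FPKM in IPF and 0.363, 0.104, 0.233, 0.382 and 0.466 FPKM in sham lungs. Every IPF lung was above every sham lung. The difference was 0.97 on the log2 scale (SE 0.28, limma adjusted p = 0.0703). With a pseudocount of 1 the difference of Mmp13 was 0.35 (adjusted p = 0.0519), while limma voom called it (1.24, adjusted p = 0.0387). Mmp25, leukolysin of neutrophils, was also higher in every IPF lung (0.321 to 0.455 against 0.198 to 0.242 FPKM, 0.58, adjusted p = 0.0956), was called by limma voom (0.76, adjusted p = 0.0387) and without a variance trend (adjusted p = 0.0107), differed by 0.18 with a pseudocount of 1, and is named after its values were seen.

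Neutrophil markers were mostly fitted higher in IPF as well. Of 13 markers, which include Mmp8 and Mmp9, none was called by limma or limma voom, 6 had an unadjusted p under 0.05, and 12 were fitted higher in IPF (median 0.89). Their summed FPKM was 59.0 to 312 in IPF and 18.2 to 91.6 in sham lungs, with IPF replicate 5 at 312. S100a9, a calgranulin of neutrophils, read 41.2, 29.3, 39.8, 33.5 and 185 FPKM in IPF and 7.44, 18.8, 35.0, 9.55 and 40.1 FPKM in sham lungs. Of the defining markers, Ly6g was at 0 in 1 IPF and 4 sham lungs, Elane in 2 and 2, and Mpo in 0 and 2. The part of neutrophil content in Mmp8, Mmp9 and Mmp25 was not tested.

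**Figure D3:**
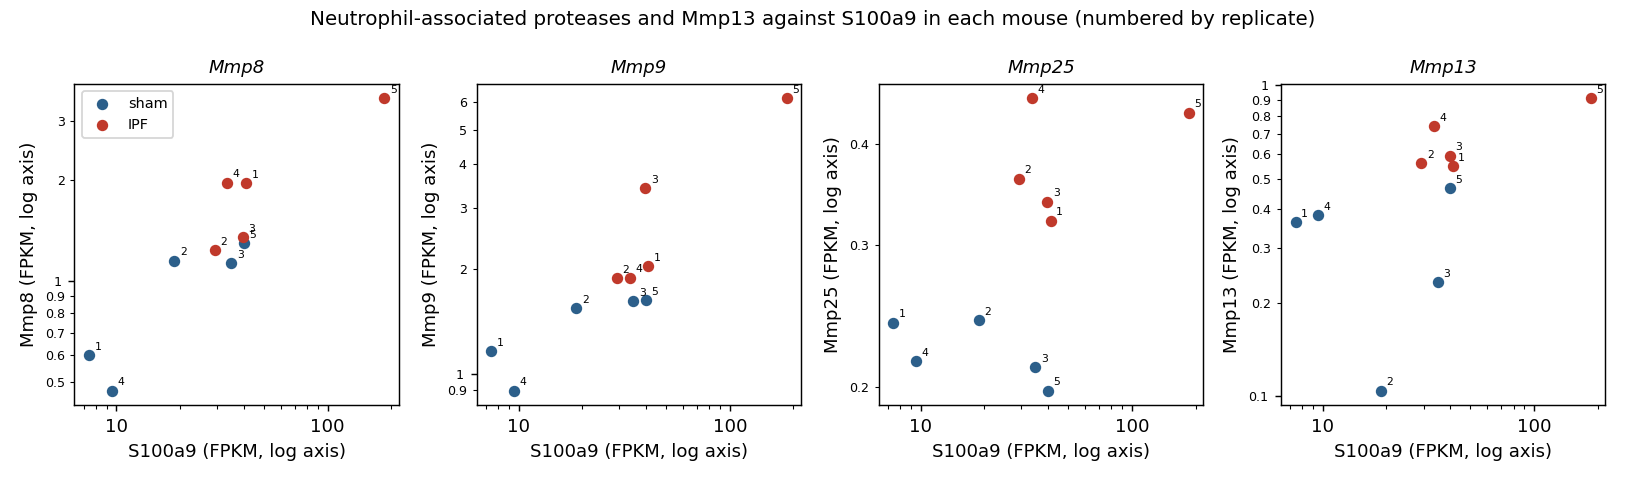
Mmp8, Mmp9, Mmp25 and Mmp13 against S100a9 in each lung (FPKM, both axes logarithmic, points numbered by replicate). IPF replicate 5, with S100a9 at 185 FPKM, is highest for Mmp8, Mmp9 and Mmp13, and the IPF and sham points do not overlap on the vertical axis for Mmp9, Mmp25 and Mmp13.

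The remaining MMPs gave no call. The stromelysin Mmp3 read 8.60 to 17.2 FPKM in IPF and 6.53 to 13.1 FPKM in sham lungs (0.47, adjusted p = 0.259), and the macrophage elastase Mmp12 0.373 to 1.02 and 0.498 to 0.848 FPKM (-0.11, adjusted p = 0.846). Mmp19 was the MMP with the lowest fitted difference (-0.19, adjusted p = 0.156). Mmp28, epilysin, differed by -0.07 at a mean of 10.8 FPKM. Summed over MMPs, FPKM was 178 to 228 in IPF and 163 to 180.3 in sham lungs, and Mmp2 made up 36.1 to 39.7% and 40.8 to 43.7% of it.

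Among the ADAMs, Adam17 was the only call of the main limma test, and limma voom and the fit without a variance trend also called Adam22. Adam17 (ENSMUSG00000052593, chromosome 12, 21323509 to 21373632) encodes TACE, the sheddase that releases TNF and several ligands of the EGF receptor. Its level was 16.6, 17.7, 18.9, 19.3 and 15.4 FPKM in the IPF lungs and 13.4, 12.2, 12.6, 12.3 and 13.2 FPKM in the sham lungs. The groups did not overlap and the means were 17.6 ± 1.59 and 12.7 ± 0.548 FPKM (SD, n = 5 each). The difference was 0.46 on the log2 scale (SE 0.07, limma adjusted p = 0.00336). Iah1, which overlaps it on the opposite strand at a like level, differed by 0.26 (adjusted p = 0.123).

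The related sheddase Adam10, which acts on Notch receptors and cadherins, read 37.0 to 41.0 FPKM in IPF and 33.5 to 43.1 FPKM in sham lungs (0.08, adjusted p = 0.576). Adam9 (ENSMUSG00000031555), the most abundant ADAM, read 53.2, 49.1, 47.1, 50.6 and 54.6 FPKM in IPF and 58.8, 49.6, 48.2, 47.6 and 61.4 FPKM in sham lungs. The groups overlapped, although sham replicates 1 and 5 lay above every IPF lung and IPF replicate 3 below every sham lung. The difference was -0.05 on the log2 scale (SE 0.08, limma adjusted p = 0.770). Adam15, Adam19, Adam8 and Adam33 were also not called, with fitted differences of 0.01 to 0.18, nor were Adam12 (-0.25, adjusted p = 0.520) and Adam28 (-0.14, adjusted p = 0.893).

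The 9 ADAMs without known proteolytic activity or known mainly from reproductive tissue were measured at 0.209 to 1.10 FPKM and none was called by limma. Adam22, a neuronal receptor of LGI proteins, was lower in every IPF lung (0.712 to 0.848 against 0.890 to 1.24 FPKM, -0.40, adjusted p = 0.104) and was called by limma voom (adjusted p = 0.0276) and without a variance trend (adjusted p = 0.0459). Adam7 was lower in every IPF lung as well (0.353 to 0.444 against 0.451 to 0.743 FPKM, -0.47, adjusted p = 0.151). With a pseudocount of 1 the differences were -0.21 for Adam22 and -0.19 for Adam7, and both are named after their values were seen.

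ADAM10 and ADAM17 need partner proteins to mature and to reach the cell surface. Of 10 tested, among them the iRhom genes Rhbdf1 and Rhbdf2 and the tetraspanins of ADAM10, none was called by limma, 5 had an unadjusted p under 0.05 and limma voom called 1. Their median difference was 0.01, and the range was -0.19 to 0.26.

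The hyalectanases, ADAMTS enzymes that cleave versican and aggrecan, held 3 of the 4 ADAMTS calls, and not in the same direction. Adamts8 (ENSMUSG00000031994, chromosome 9, 30942562 to 30963838), a secreted protease with anti-angiogenic activity, had the lowest adjusted p of all 59 members. Its level was 9.49, 10.9, 11.1, 9.71 and 9.20 FPKM in the IPF lungs and 18.5, 19.5, 17.1, 18.6 and 17.3 FPKM in the sham lungs. The highest IPF lung was far below the lowest sham lung. Means were 10.1 ± 0.871 and 18.2 ± 0.972 FPKM (SD, n = 5 each). The difference was -0.85 on the log2 scale (SE 0.07, limma adjusted p = 7.62e-05).

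Adamts1 (ENSMUSG00000022893, chromosome 16, 85793827 to 85803113), which cleaves versican and aggrecan, read 34.0, 25.9, 25.4, 31.4 and 30.5 FPKM in IPF and 44.4, 34.8, 37.0, 45.8 and 43.1 FPKM in sham lungs. Every IPF lung lay below every sham lung, by a narrow margin. The difference was -0.48 on the log2 scale (SE 0.10, limma adjusted p = 0.0200). Without IPF replicate 2 or sham replicate 1 the adjusted p was 0.0555, and without sham replicate 4 it was 0.0538.

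Adamts5 (ENSMUSG00000022894, chromosome 16, 85856173 to 85901828), aggrecanase-2, moved the other way. It read 2.97, 3.52, 3.43, 2.91 and 2.62 FPKM in IPF and 2.19, 2.20, 1.75, 2.06 and 2.25 FPKM in sham lungs, without overlap. The difference was 0.54 on the log2 scale (SE 0.11, limma adjusted p = 0.0133). Adamts4 (ENSMUSG00000006403), aggrecanase-1, was rare at 0.623, 0.511, 0.451, 0.582 and 0.306 FPKM in IPF and 0.366, 0.336, 0.181, 0.112 and 0.191 FPKM in sham lungs, and its groups overlapped. The difference was 0.85 on the log2 scale (SE 0.27, limma adjusted p = 0.0980). With a pseudocount of 1 it was 0.27. Without IPF replicate 5 and sham replicate 1 together, at the pseudocount of 0.1, it was 1.11 (adjusted p = 0.0335). Adamts9 and Adamts15 were not called (-0.14 and -0.10).

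Versican is the substrate shared by these enzymes. Vcan itself read 0.703, 0.967, 1.05, 1.29 and 0.543 FPKM in IPF and 1.85, 1.31, 1.77, 1.56 and 1.95 FPKM in sham lungs and was lower (-0.86, limma adjusted p = 0.0322). The groups touched closely without overlapping. The Vcan call was lost in 6 of the 10 fits that left out a lung (adjusted p up to 0.0812), when IPF replicate 1 or 2 or sham replicate 1, 3, 4 or 5 was left out. Under the 9 other processing alternatives the difference was -0.94 to -0.50, and the call was kept in 7.

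The procollagen N-proteinases, which trim the amino ends of fibrillar procollagens, were all fitted lower in IPF. Adamts14 (ENSMUSG00000059901, chromosome 10, 61197112 to 61273438) read 1.47, 0.750, 0.753, 1.06 and 1.46 FPKM in IPF and 3.34, 1.92, 2.16, 1.95 and 1.84 FPKM in sham lungs. The groups did not overlap, and sham replicate 1 stood well above the other sham lungs. The difference was -0.99 on the log2 scale (SE 0.23, limma adjusted p = 0.0261). With a pseudocount of 1 it was -0.63 (adjusted p = 0.0279). Without sham replicate 1 the difference was -0.84 (adjusted p = 0.0597), and leaving out IPF replicate 2, 3 or 4 or sham replicate 3 or 4 also ended the call (adjusted p = 0.0505 to 0.0683).

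Adamts3 (ENSMUSG00000043635), which also processes the lymphatic growth factor VEGF-C, read 0.335, 0.309, 0.302, 0.556 and 0.791 FPKM in IPF and 1.05, 0.626, 0.780, 0.586 and 0.761 FPKM in sham lungs. IPF replicates 1 to 3 were low, and replicate 5 lay within the sham range. The difference was -0.67 on the log2 scale (SE 0.26, limma adjusted p = 0.165). Without IPF replicate 5 it was -0.86 (adjusted p = 0.0417), and with a pseudocount of 1 it was -0.28. Adamts2, the most abundant of the 3, read 13.7 to 21.8 and 18.3 to 24.1 FPKM (-0.16, adjusted p = 0.542).

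The fibrillin-associated ADAMTS genes include the most abundant ADAMTS of the lung, Adamts10 (ENSMUSG00000024299). It read 45.9, 49.6, 38.6, 45.2 and 39.6 FPKM in IPF and 41.1, 38.7, 36.9, 37.7 and 33.3 FPKM in sham lungs, with overlapping groups. The difference was 0.22 on the log2 scale (SE 0.08, limma adjusted p = 0.155). Adamts17 (ENSMUSG00000058145, chromosome 7, 66839735 to 67153171), a related enzyme, read 7.96, 8.81, 6.55, 8.71 and 3.27 FPKM in IPF and 4.59, 3.08, 2.53, 3.91 and 4.20 FPKM in sham lungs. IPF replicates 1 to 4 were above every sham lung and replicate 5 lay inside the sham range. The difference was 0.88 on the log2 scale (SE 0.26, limma adjusted p = 0.0793). Without IPF replicate 5 it was 1.13 (adjusted p = 0.00318).

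**Figure D4:**
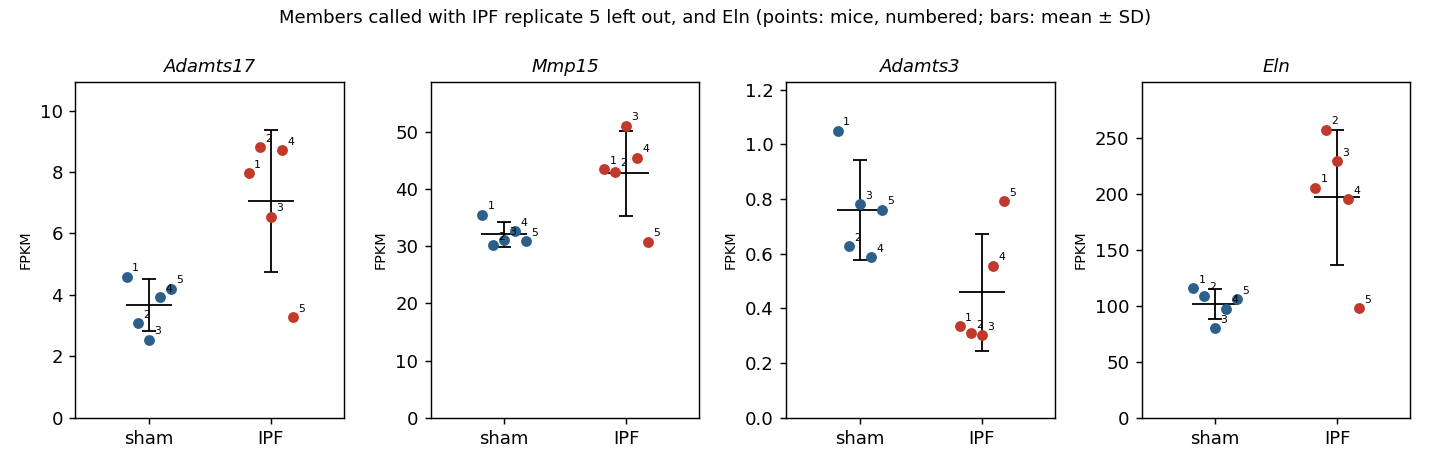
FPKM of Adamts17, Mmp15 and Adamts3, which are called when IPF replicate 5 is left out, and of the elastin gene Eln (points are single lungs numbered by replicate, bars the mean, error bars the SD, n = 5 a group, axes from 0), chosen after their values were seen. In each panel IPF replicate 5 lies within the sham range.

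IPF replicate 5 thus stood with the sham lungs for Adamts17, Mmp15 and Adamts3. The same lung read 97.7 FPKM for Eln, the gene of elastin, where the other IPF lungs had 195 to 257 FPKM and the sham lungs 80.0 to 116 FPKM. It also had the most S100a9 and the highest Nr1d2 of the IPF group. Without it, 11 members were called in place of 8, the gained genes being Adamts17, Mmp15 (0.51, adjusted p = 0.00179) and Adamts3. Calls over all genes tested rose in the same fit, from 5.85% to 7.92%, so the gain was not particular to these members. Which property of this lung or library goes with these values was not tested.

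The 5 ADAMTSL genes encode secreted matrix proteins without a protease domain. Adamtsl2 (ENSMUSG00000036040), which binds fibrillin and a TGF-beta binding protein, was the most abundant at 25.5, 24.2, 21.5, 26.0 and 23.1 FPKM in IPF and 26.4, 21.7, 20.9, 26.4 and 23.9 FPKM in sham lungs. The ranges were almost the same. The difference was 0.02 on the log2 scale (SE 0.08, limma adjusted p = 0.944). Adamtsl4 had the largest fitted difference of the 5 (0.18, adjusted p = 0.296).

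On the inhibitor side, Timp3 fell and the most abundant inhibitor, Timp2, was not called. Timp3 (ENSMUSG00000020044, chromosome 10, 86300372 to 86349506) read 70.0, 46.9, 55.4, 65.2 and 86.2 FPKM in IPF and 135, 94.8, 119, 92.7 and 134 FPKM in sham lungs. Every IPF lung was below every sham lung, with IPF replicate 5 the nearest to them. Means were 64.7 ± 14.9 FPKM and 115.1 ± 20.6 FPKM (SD, n = 5 each). The difference was -0.84 on the log2 scale (SE 0.17, limma adjusted p = 0.0137). Timp3 lies within Syn3 on the opposite strand, which was read at a mean of only 0.118 FPKM.

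Timp2 (ENSMUSG00000017466, chromosome 11, 118301069 to 118355740), which inhibits MMP2 and also helps MT1-MMP to activate it, read 229.7, 226, 227, 227 and 219 FPKM in IPF and 225, 209, 221, 217 and 226 FPKM in sham lungs. The lungs differed little within either group. The difference was 0.04 on the log2 scale (SE 0.06, limma adjusted p = 0.750). Timp1 (ENSMUSG00000001131, chromosome X, 20870166 to 20874735), the soluble inhibitor that binds pro-MMP9, read 4.30, 4.66, 7.03, 4.94 and 2.99 FPKM in IPF and 2.87, 4.65, 3.58, 2.91 and 5.17 FPKM in sham lungs, and the groups overlapped widely. The difference was 0.30 on the log2 scale (SE 0.22, limma adjusted p = 0.507). Its gene lies on the X chromosome.

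Timp4 (ENSMUSG00000030317, chromosome 6, 115241892 to 115252205), best known from heart and vessels, was rare. It read 0.429, 0.254, 0.503, 0.223 and 0.508 FPKM in IPF and 0.638, 0.719, 0.708, 0.784 and 0.545 FPKM in sham lungs, and every IPF value lay below every sham value. The difference was -0.73 on the log2 scale (SE 0.22, limma adjusted p = 0.0849). With a pseudocount of 1 it was -0.28, and limma voom called it (-0.89, adjusted p = 0.0312). It lies within Syn2, which is on the opposite strand at a mean of 1.92 FPKM and was higher in IPF (1.13, adjusted p = 0.00107), and whether the counting used strand is not given in the sources used here.

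**Figure D5:**
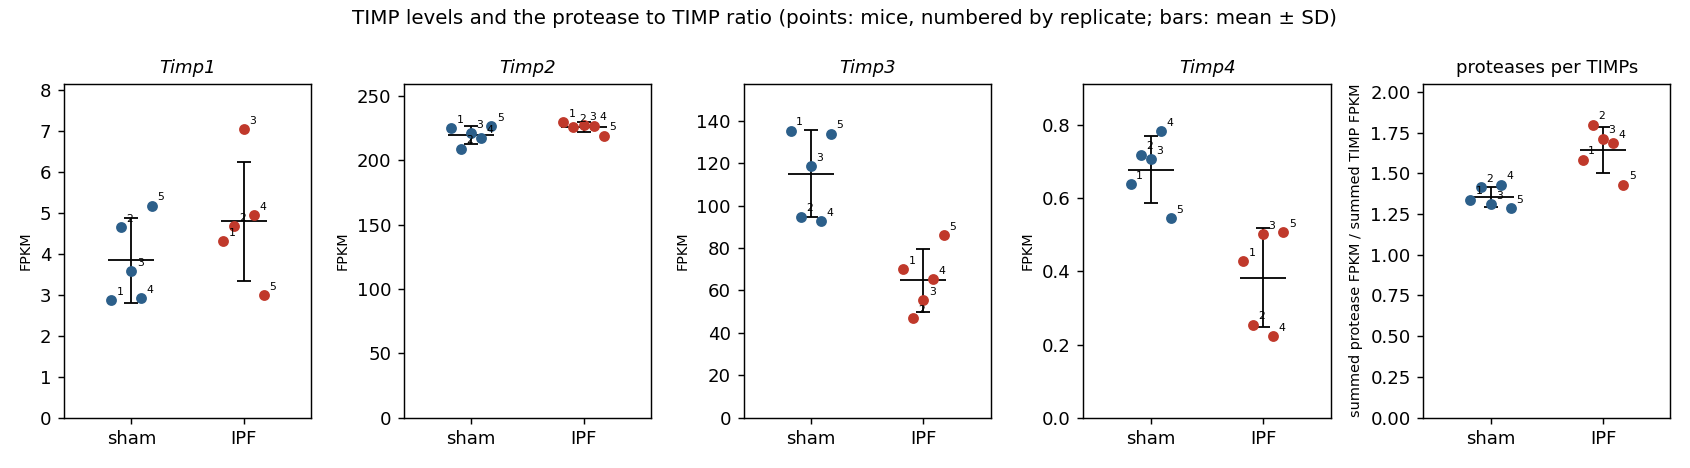
FPKM of the 4 TIMPs and the ratio of summed protease FPKM to summed TIMP FPKM (points are single lungs numbered by replicate, bars the mean, error bars the SD, n = 5 a group, axes from 0). Timp3 and Timp4 are lower in every IPF lung, Timp1 and Timp2 overlap, and the ratio of IPF replicate 5 meets that of sham replicate 4.

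Within each lung, the summed proteases were set against the summed inhibitors. The summed FPKM of the 41 proteases was 442 to 502 in IPF and 437 to 487 in sham lungs, and that of the 4 TIMPs 278 to 309 and 309.1 to 366. The ratio of these sums was 1.58, 1.80, 1.71, 1.69 and 1.43 in IPF and 1.34, 1.41, 1.31, 1.43 and 1.29 in sham lungs. All IPF ratios were above the sham ratios, but IPF replicate 5 and sham replicate 4 were equal to 3 digits. The mean ratio was 1.64 ± 0.141 against 1.36 ± 0.0632 (SD, n = 5 each), given without a test, since a sum of FPKM leans on a few abundant genes. Timp2 made up 71.0 to 81.4% of TIMP FPKM in IPF and 61.9 to 69.3% in sham lungs. The ratio and this share both hold Timp3, a gene already called lower, and the protease sums overlapped between the groups.

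Pairs of an enzyme and its inhibitor can be read in the same way. Adam17 per Timp3 was 0.238, 0.377, 0.341, 0.296 and 0.179 in IPF and 0.0992, 0.128, 0.106, 0.133 and 0.0983 in sham lungs, a description of 2 genes already called. Mmp2 per Timp2 overlapped between the groups (0.305 to 0.394 against 0.318 to 0.354). Mmp9 per Timp1 was 0.383 to 2.06 in IPF and 0.309 to 0.453 in sham lungs, with IPF replicate 5 at 2.06.

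Genes around the proteases were taken from lists of activators, inhibitors, receptors and substrates. Of 21 regulators of MMPs tested, 1 was higher and 3 were lower (median -0.02). Plau, the urokinase plasminogen activator, rose from 2.68 ± 0.194 to 4.78 ± 0.708 FPKM (0.80, limma adjusted p = 0.00215). Its groups did not overlap, and every fit that left out a lung kept the call. Lcn2, which binds MMP9, was lower (-0.73, limma adjusted p = 0.0291) and lost its call without IPF replicate 2 or sham replicate 2, 3 or 4 (adjusted p = 0.0664 to 0.0746). Plat, the tissue plasminogen activator, named after its values were seen, was also lower (-0.36, adjusted p = 0.0462), and was called in 1 of the 10 fits that left out a lung, the fit without IPF replicate 3.

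Of 30 shed or cleaved substrates tested, 3 were higher and 2 lower (median 0.02). Tnfrsf1b, TNF receptor 2, was higher (0.55, limma adjusted p = 0.0228) and lost its call without IPF replicate 4 or sham replicate 1, 2 or 4 (adjusted p = 0.0596 to 0.0667). Areg, the EGF receptor ligand amphiregulin, was lower (-0.76, limma adjusted p = 0.0253) and lost its call without IPF replicate 1, 2 or 4 or sham replicate 3 or 5 (adjusted p = 0.0538 to 0.0698). Eln, named after its values were seen, was higher (0.89, adjusted p = 0.0408). The Eln call was kept in 1 of the 10 fits that left out a lung, the fit without IPF replicate 5 (1.13, adjusted p = 4.38e-04), and the other 9 gave adjusted p = 0.0731 to 0.104.

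Of 6 related proteins outside the name rule, Pcolce2, the procollagen C-proteinase enhancer 2, was the only call. It was higher in every IPF lung (0.33, limma adjusted p = 0.0302), and kept the call without IPF replicate 3 or 5 or sham replicate 5, while the other 7 fits gave adjusted p = 0.0504 to 0.0791.

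By level, 20 members had a mean of at least 10 FPKM, 17 from 1 to under 10 and 22 under 1. No member was at 3 reads or fewer in every lung of a group, although single lungs had as few as 2 reads for the rare members, and differences of those genes are the least precise. The 8 called members all had a mean above 1 FPKM. Of the 59 members, 20 overlap another gene read at 0.1 FPKM or more, and for 8 an overlapping gene had the higher level.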

How the data were processed

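Lung RNA of 5 IPF and 5 sham mice was sequenced as paired reads. The methods name Fastp for trimming, HISAT2 for alignment and StringTie for quantification. The authors deposited 1 table of FPKM with a column per sample. The library kit and the aligner differ between the labels and the methods. The methods name GRCm39, whereas gene positions in the table are those of GRCm38, since chromosome 1 reaches 195323493. FPKM multiplied by gene length gave whole reads for every value within 0.01 of a read, so library totals are recovered reads, not authors' counts.

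FPKM of 20448 genes averaging at least 0.1 was compared as log2(FPKM + 0.1), IPF minus sham, with limma 3.58.1 (variance trend) in R 4.3.3 and the Benjamini-Hochberg adjustment over all of them, with no covariates. The count model of the methods was not the main test because the deposited values are FPKM, and recovered reads were tested as an alternative with limma voom. Fold changes on this scale understate the change of low genes. The two-sided exact permutation test over assignments of 5 of 10 lungs gave 0.00794, the smallest it allows, for each of the 8 called members. Any member whose groups do not overlap gets this value, so it adds nothing to that description. Mmp13, Mmp9, Mmp25, Timp4, Adam22 and Adam7, which were not called, had it too.

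Members and gene lists were chosen with earlier results of these data known. Values in every lung are given for TIMPs, called members, the most abundant of each subfamily, Mmp9 and the 5 other members with the widest differences among those with at least 0.3 FPKM in a group, and called genes of the pathway lists (the 8 smallest adjusted p) by their values. Some genes of these lists that the rule names are not reported here. Alternatives were pseudocounts of 1 and 0.01, no filter, a minimum of 1 FPKM, median-of-ratios scaling, quantile normalization, a replicate block, no variance trend, limma voom on recovered reads, and each lung left out. Leaving out IPF replicate 5 and sham replicate 1 together was added after seeing the data. Python 3.11.15, pandas 2.3.3 and matplotlib 3.10.9 were used for tables and figures.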

Additional observations from a re-analysis of the deposited data

Results flagged for a closer look

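In 7 of 118 sets of 5 lungs, a lung stood apart from the other 4 by Dixon's gap at the 95% level, which chance gives in about 1 of 20 sets. Adamts14 was 3.34 FPKM in sham replicate 1 and 1.84 to 2.16 FPKM in the other sham lungs. Mmp28 was 12.0 FPKM in the same lung and 10.6 to 11.0 FPKM in the others. Adamtsl1 was 0.912 FPKM in sham replicate 4 and 1.31 to 1.32 FPKM in the others. IPF replicate 3 stood apart 3 times, with Mmp23 at 6.51 FPKM against 2.54 to 3.59 FPKM, Adam28 at 1.99 FPKM against 0.313 to 0.634 FPKM and Adam15 at 16.1 FPKM against 17.6 to 18.02 FPKM. Adam1b was 0.322 FPKM in IPF replicate 5 and 0.0539 to 0.123 FPKM in the other IPF lungs. The cause of these gaps was not tested.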

How the results depend on the processing

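Adamts8, Adam17, Mmp11, Adamts5 and Timp3 were called in all 10 fits that left out a lung and in all 9 other alternatives. The number of called members was 8 in the main analysis, 8 to 12 under those 9 alternatives and 5 to 11 with a lung left out (5 without IPF replicate 2, 11 without IPF replicate 5). Of all genes, 5.85% were called in the main analysis and 2.89 to 9.55% under those alternatives (7.17% with limma voom). With a lung left out the share was 3.66 to 7.92% (3.85% without IPF replicate 2, 7.92% without IPF replicate 5). Without IPF replicate 5 and sham replicate 1, 10 members were called (7.1% of all genes), of which 7 were among the 8. Members past both limits numbered 0 in the main analysis, 1 with a pseudocount of 0.01, 2 with limma voom, 0 to 2 with a lung left out, and 2 without IPF replicate 5 and sham replicate 1. Members whose groups did not overlap numbered 14, and 9 among the 37 with at least 1 FPKM, where 1275 of 13445 genes did not overlap. With a lung left out they numbered 14 to 19. That count cannot fall below 14, because removing a lung never makes separate groups overlap, so it says nothing on stability. The TIMP median was -0.34, -0.12 with a pseudocount of 1, and 0.0401 at a minimum of 1 FPKM, where Timp4 drops out. The difference of Adamtsl2, near 0, turned to -0.0252 with quantile normalization, ranged from -0.0292 to 0.0555 with a lung left out, and was 0.0683 without IPF replicate 5 and sham replicate 1. Of the genes around the proteases, Plau and Tnfrsf1b were called under all 9 alternatives, Areg under 8, Plat, Lcn2 and Vcan under 7, and Pcolce2 and Eln under 5.

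Replicate numbers were not taken as pairs, since the labels tie them to no litter or day and no correlation of same-numbered deviations passed 0.1 (-0.0204 to 0.0953). On the other side, 6 of 10 lungs correlated best with their own number, a hint from the data of shared deviation. A fit with the replicate block gave 9 calls, with Mmp9 added (adjusted p = 0.0476). Members under 1 FPKM rest on few reads. Sex and clock phase moved with the groups and could not be separated from them.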
